A study of Mus musculus with 8 samples.

Results

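Total liver RNA of mice aged 2 weeks and 1 month was compared over 5 arrays, chosen by the age in the sample titles from the 8 arrays of the series. The 2-week group held 1 wild-type and 1 knockout array, and the 1-month group held 1 wild-type and 2 knockout arrays. All mice were C57BL/6 males, and the knockout lacked Arid1a in hepatocytes, so that the other cells of the liver kept the gene. The driver of the deletion, the deleted part of the gene and the time of day at which livers were taken are not given in the sources used here. Each knockout array and the 2-week wild-type array came from a single mouse, while the 1-month wild-type array was a pool of 2 mice. Whole liver was measured, in which fewer cells of a type and less RNA per cell cannot be told apart. Both 2-week arrays lay on slide 1 and were scanned in scan 1, and the 3 arrays of 1 month lay on slide 2 and were scanned in scan 2, so within these 5 arrays age and slide cannot be told apart. A level below is the log2 processed signal of a probe after each array was scaled to a common 75th percentile, and a change is the level at 1 month minus the level at 2 weeks. Of 41174 probes, 55.7% to 58.5% were well above background, depending on the array, and the 75th percentile lay between 263 and 341.

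Mouse pups live on milk, which is rich in fat and poor in carbohydrate, and move to solid food between these ages. The liver then completes the shift from a fetal and blood-forming organ to a metabolic one, fetal genes are shut off, and hepatocytes divide less. In males the pulsatile release of growth hormone that comes with puberty, acting through the transcription factor STAT5B, switches on male-biased liver genes and holds down female-biased ones. Feeding at set hours also entrains the circadian clock of the liver, a loop in which BMAL1 and CLOCK activate the Per, Cry and Nr1d genes that repress them. Arid1a encodes a subunit of the BAF complex, which moves nucleosomes and opens chromatin.

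The change over weaning was estimated with genotype as a covariate, and 1821 of 16247 genes (11.2%) passed the test at an adjusted p under 0.05 (limma, Benjamini-Hochberg). Of these, 1014 (6.24%) were higher and 807 (4.97%) were lower at 1 month, with 547 and 545 at least 2-fold. The median of all genes moved by 0.03. Without genotype in the fit, 1048 genes passed. The count rests on few arrays and fell wherever one was left out. It was 95 without the 2-week knockout, 281 without either wild-type array (the fit is then the knockout change alone), 0 without 1-month knockout replicate 1 (limma, 4021 at an unadjusted p under 0.05) and 330 without 1-month knockout replicate 2. All 1821 genes had the same direction in the wild type and in the knockouts. The fit counts a gap between the genotypes' changes as error, so this agreement is in large part set by the test. A fit of all 8 arrays with slide as a term left 35 genes, of which 9 were higher. Slide and age are separated there only by the 5-day arrays, of which 1, a knockout, lies on slide 2, and that array stands apart by its muscle genes (Tnnc2, a troponin of fast muscle, at 13.15 against 4.80 and 4.04 on the other 5-day arrays). Of the 1821 genes, 1645 kept their direction in that fit.

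The wild-type and knockout changes can be set side by side, but they do not have equal support. The wild type has 1 array against 1, so its change has no spread of its own. Without the 2-week knockout, the age fit is this change alone, with its spread taken from the knockouts of 1 month. In the wild type 1066 genes (6.56%) were at least 2-fold higher and 991 (6.1%) at least 2-fold lower at 1 month. In the knockouts 870 (5.35%) were at least 2-fold higher and 962 (5.92%) at least 2-fold lower. Of the genes 2-fold higher, 466 were so in both genotypes, which is 43.7% of the wild-type genes and 53.6% of the knockout genes. Of those 2-fold lower, 524 were shared, 52.9% and 54.5%. Only 20 genes were 2-fold higher in the wild type and 2-fold lower in the knockout, and 32 the reverse. Across genes, which are not independent replicates, the 2 changes had a Pearson r of 0.66. Both changes also share the step from slide 1 to slide 2, so their agreement cannot tell age from slide. In the fit of all 6 groups of the series, 187 genes (1.15%) were higher and 386 (2.38%) lower at 1 month within the knockouts. The difference between the 2 changes passed for 0 genes (limma, 1306 at an unadjusted p under 0.05), and the smallest adjusted p was 0.101. With a lone array at 2 weeks in each genotype, that difference cannot tell the genotype from the animal.

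**Figure D1:**
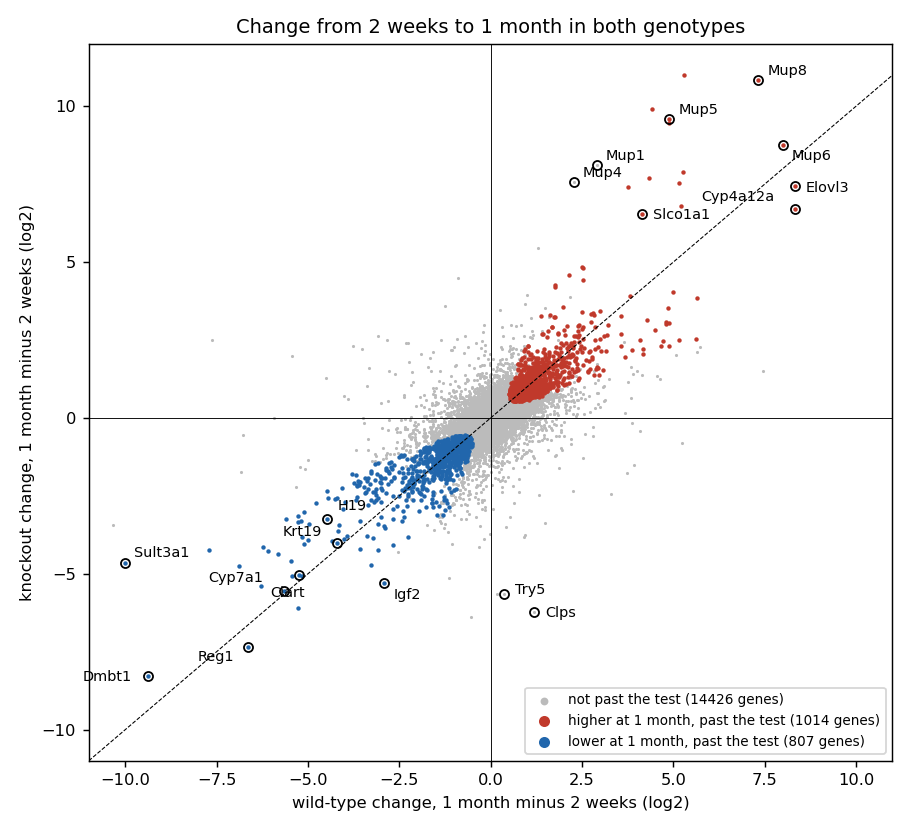
Change from 2 weeks to 1 month in the wild type (horizontal axis, log2) against the same change in the knockout (vertical axis, log2), 1 point per gene. Red and blue points are the 1014 genes higher and 807 lower at 1 month that passed the limma test with genotype as covariate, grey points did not pass, and the dashed line marks equal changes; the major urinary protein genes lie far above 0 in both genotypes and the pancreatic genes Clps and Try5 lie below 0 in the knockout alone.

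Arid1a itself did not move between the ages. Its probe (A_51_P118671, mm9 chromosome 4, 133235292 to 133235351) read 9.35 in the wild type and 8.77 in the knockout at 2 weeks, and 9.35, 8.83 and 8.78 at 1 month in the wild type and the knockouts. All knockout arrays lay below all wild-type arrays, by about the same distance at both ages. The change with age was 0.02 ± 0.11 (SE, adjusted p = 0.935, limma), close enough to 0 that it lay on the other side under 4 of the alternative settings and without the 2-week knockout. Its paralogue Arid1b, which takes the same place in a separate form of the BAF complex, changed by −0.04 ± 0.15 (adjusted p = 0.892) and also crossed 0 under other settings. Of 25 measured BAF subunit genes, 1 rose and 0 fell, where 6.24% and 4.97% of all genes did, and the median was −0.05. The gene that rose was Ss18l1, an SS18-related subunit found in neurons (1.16, although its other probe gave 0.26).

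The strongest gains were in genes that male mouse liver switches on at puberty. Of 31 male-biased and pubertal genes listed, 26 could be tested, and 17 of the 26 rose and 0 fell, where 6.24% of all genes rose. Their median change was 2.44, against 0.03 for all genes. The median was 2.55 in the wild type and 2.31 in the knockouts. Per array, the median level of the list was 10.33 and 8.23 at 2 weeks in the wild type and the knockout, and 13.50, 12.24 and 12.18 at 1 month in the wild type and knockouts. The 3 arrays of 1 month therefore stood above both 2-week arrays. Without the 2-week knockout 9 members still passed, without either wild-type array 11, and 0 without 1-month knockout replicate 1 or with slide as a term.

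The major urinary proteins, small lipid-binding proteins that carry male scent signals into urine, led this group, and Mup9 and Hsd3b4, which are not on the list, are given with their relatives. Mup8 (A_52_P139316, mm9 chromosome 4, 60232592 to 60232774) read 9.46 in the wild type and 4.75 in the knockout at 2 weeks. At 1 month it read 16.79, 15.62 and 15.54. The 2-week knockout was by far the lowest array, and the ages did not overlap. The fitted change was 9.33 ± 0.84 (SE, adjusted p = 0.0192), with 7.33 in the wild type and 10.84 in the knockouts. Mup6 rose by 8.42 ± 0.22, Mup5 by 7.58 ± 1.11, Mup9 by 7.5 ± 1.10 and Mup3 by 5.84 ± 0.88. In each the knockout change was the larger one, most of all in Mup5 (4.89 and 9.59) and Mup9 (4.89 and 9.46). Mup6 and Mup9 were not well above background (dim) in the 2-week knockout, which makes their rise there at least 87.6-fold and at least 165-fold. Mup1 and Mup4 were already at 15.72 and 15.02 in the 2-week wild type and did not pass (5.88 and 5.30, adjusted p = 0.0548 and 0.0679). Mup genes are nearly identical in sequence, so a probe may read several of them.

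Enzymes and transporters of the male pattern rose with them. Elovl3, an elongase of very long chain fatty acids, read 4.33 and 2.10 at 2 weeks and 12.65, 10.28 and 8.77 at 1 month, again with no overlap of the ages, and rose by 7.81 ± 0.53 (adjusted p = 0.014), with the 2-week knockout dim and the rise there at least 36.4-fold. Cyp4a12a, a male-specific fatty acid hydroxylase, read 6.54 and 5.16, then 14.87, 12.26 and 11.5, and rose by 7.41 ± 0.46. At 1 month the wild type was the highest array for both genes. The bile acid and steroid hydroxylase Cyp7b1 went from 9.23 to 14.39 in the wild type and from 7.60 to 10.27 and 9.92 in the knockouts (3.64 ± 0.65). Slco1a1, an importer of organic anions, rose by 5.53 ± 0.63 (at least 72.2-fold in the knockouts, dim at 2 weeks), the steroid-metabolising enzymes Hsd3b5 by 4.45 ± 0.28, Hsd3b4 by 4.09 ± 0.34 and Hsd3b2 by 2.5 ± 0.15, and Cyp4a12b by 2.72 ± 0.20. The terminal complement genes C9 (2.37 ± 0.22) and C8a (1.48 ± 0.18) belong to the list as well. The complement gene C6 (3.14 in the wild type and 0.59 in the knockouts) and the complement regulator Susd4 (3.85 and 0.65) moved mainly in the wild type and did not pass (adjusted p = 0.148 and 0.159).

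Of 27 tested female-biased genes of 31 listed, 4 rose and 4 fell, where 6.24% and 4.97% of all genes did. With any 1 array left out, 0 rose and 0 to 3 fell (limma). In the wild type 2 were at least 2-fold higher and 18 at least 2-fold lower, against 3 and 7 in the knockouts, and the median was −2.34 in the wild type and −0.29 in the knockouts. The sulfotransferase Sult3a1 (A_51_P426513, mm9 chromosome 10, 33599244 to 33599303) read 11.95 and 8.80 at 2 weeks and 1.93, 4.36 and 3.97 at 1 month. Both 2-week arrays lay above all later ones, and the wild type fell furthest. Its change was −6.94 ± 1.28 (adjusted p = 0.0437), and the 1-month wild type was not above background, a drop of at least 207-fold in the wild type. The repressor Cux2, which holds down male genes in female liver, fell by 4.39 ± 0.72 (at least 12.5-fold in the wild type, which was dim at 1 month), the neurotrophin receptor Ntrk2 by 2.77 ± 0.39 and the monooxygenase Fmo2 by 2.75 ± 0.28. Cyp2c39, a retinoid hydroxylase, rose by 1.75 ± 0.27. Cyp2b9, a monooxygenase of female liver, went from 13.93 to 10.02 in the wild type and from 12.85 to 12.87 and 14.08 in the knockouts. With changes of −3.90 and 0.62 it did not pass for age (adjusted p = 0.474, limma). The difference between genotypes did not pass either (4.52, adjusted p = 0.359, limma).

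**Figure D2:**
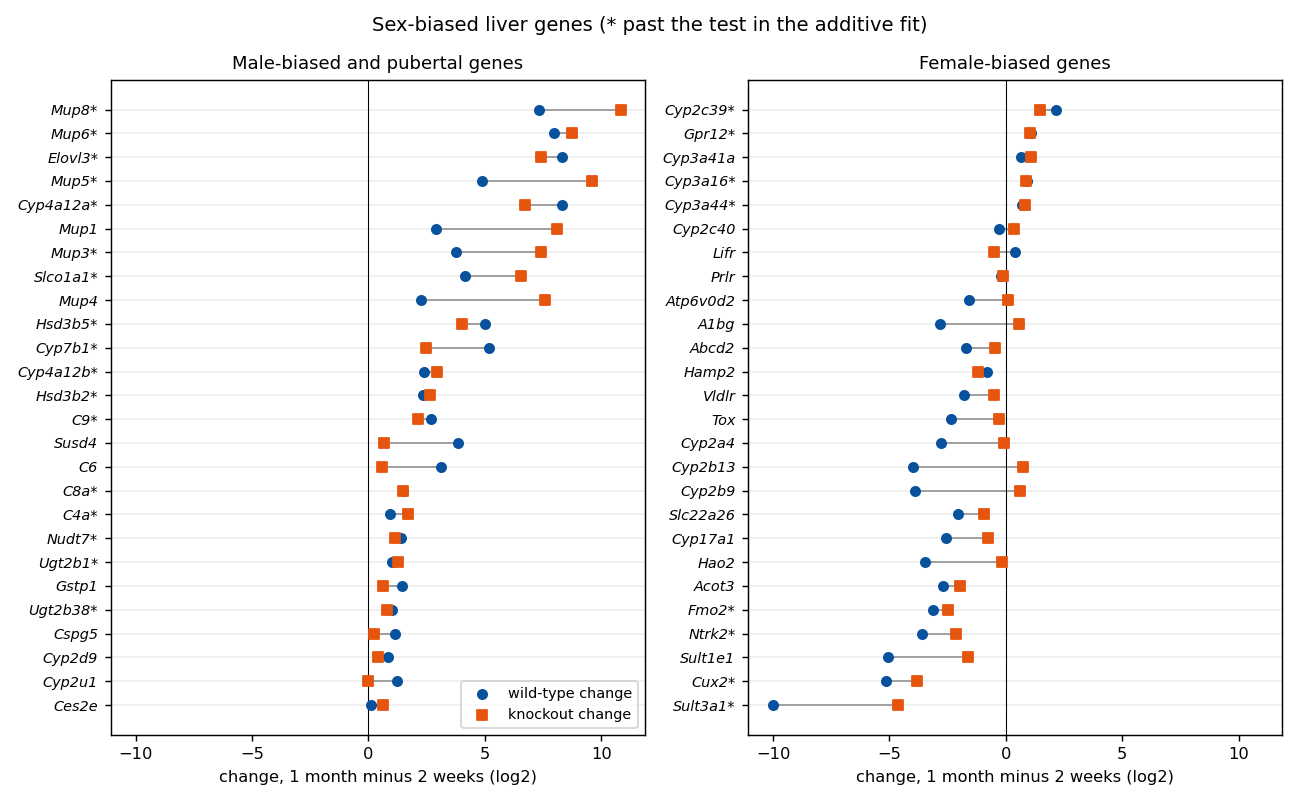
Change from 2 weeks to 1 month (horizontal axis, log2) of each tested male-biased gene (left, 26 genes) and female-biased gene (right, 26 of the 27 genes), with the wild type as circles and the knockouts as squares. Genes with a star passed the limma test with genotype as covariate (17 and 8); nearly all male-biased genes lie right of 0 in both genotypes, while the female-biased genes are spread wide in the wild type and lie nearer 0 in the knockouts.

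Several of the 12 genes with the largest falls are known from mucosal and glandular epithelium. Dmbt1, a scavenger receptor-like mucosal glycoprotein (A_51_P500676, mm9 chromosome 7, 138264863 to 138264922), read 13.34 and 12.75 at 2 weeks and 3.96, 4.65 and 4.32 at 1 month. It was not well above background in the wild type and in 1 of the 2 knockouts of 1 month, so that the fall in the wild type was at least 545-fold. The fitted change was −8.75 ± 0.30 (adjusted p = 0.00806). Reg1, a secreted protein of pancreas and gut, read 9.95 and 10.64 at 2 weeks and was not well above background on any array of 1 month, a drop of at least 65.5-fold. The water channel Aqp5 (at least 13.9-fold), the intestinal mucin Muc3 (at least 12-fold), the chloride exchanger Slc26a3 (at least 15.2-fold), the goblet cell peptide Spink4 (at least 28.3-fold) and Fam83e (at least 13.4-fold) were likewise dim on all arrays of 1 month. Sult2a5, a hydroxysteroid sulfotransferase, fell by 5.72 ± 0.92 (at least 52-fold in the wild type, dim at 1 month), and Degs2, a sphingolipid hydroxylase, was at least 24.8-fold lower. Among 11 tested of 20 gut and mesothelium markers, 4 fell (Vil1, the villin of brush borders, Krt20, Lgals4 and Upk1b) and 0 rose, where 4.97% and 6.24% of all genes did. Vil1, Krt20 and Upk1b were not well above background at 1 month. The median level of these 11 was 7.74 and 6.41 at 2 weeks and 5.67, 5.62 and 5.42 at 1 month, while the log2 of their summed signal was 15.59 and 15.55, then 15.68, 15.74 and 15.61. Members passed the filter in part through the age at which they were high, and the part of other tissue in these values was not tested.

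**Figure D3:**
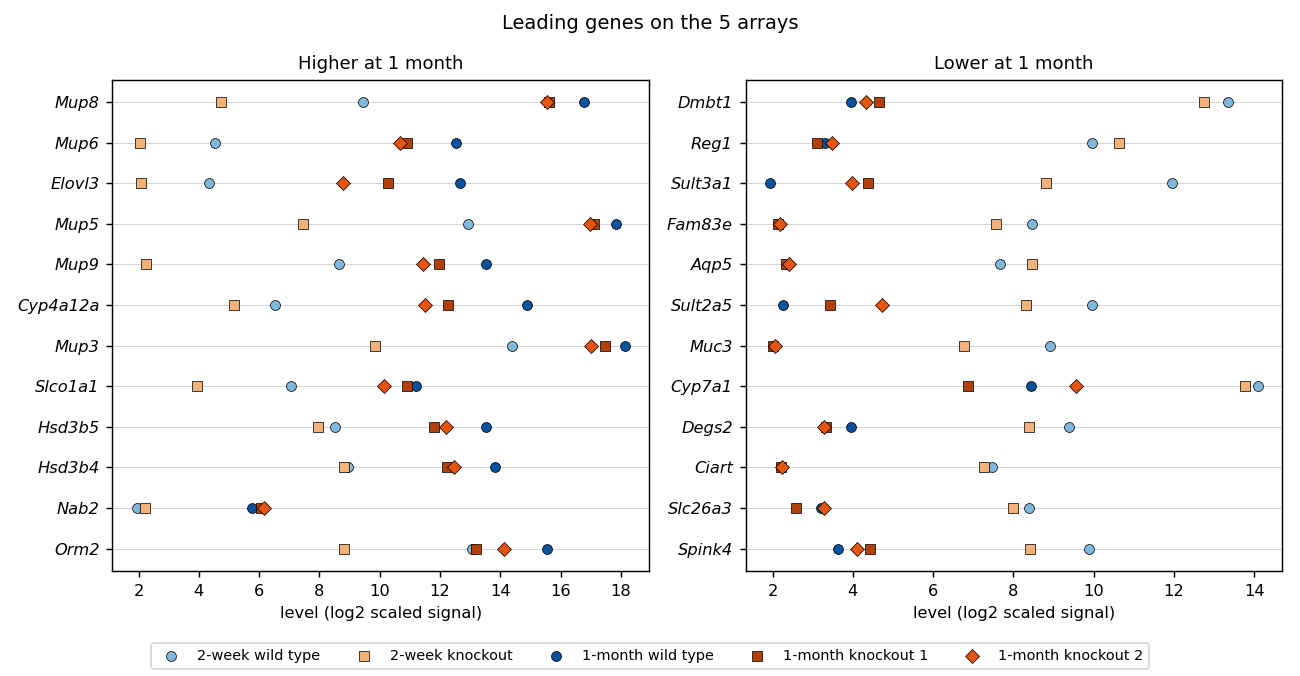
Level on each of the 5 arrays (horizontal axis, log2 scaled signal) of the 12 genes with the largest rise (left) and the 12 with the largest fall (right) among those named by the rule. Light symbols are 2 weeks, dark symbols 1 month, circles wild type, squares and diamonds knockout. For all 24 genes the arrays of the 2 ages are apart. For Mup8, Mup5, Mup9, Mup3 and Orm2 the 2-week knockout lies far below the 2-week wild type.

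Biliary epithelium genes were counted as a list, without a test of the list itself. Of 23 cholangiocyte and ductular markers, 20 were tested, and 9 fell and 0 rose, where 4.97% of all genes fell. The median was −1.18, with −1.25 in the wild type and −0.49 in the knockouts. Krt19, the keratin that marks bile ducts (A_51_P356642, mm9 chromosome 11, 100002392 to 100002451), read 11.22 and 10.92 at 2 weeks and 7.01, 6.60 and 7.18 at 1 month, close values within each age. It fell by 4.11 ± 0.22 (adjusted p = 0.0121). The duct keratin Krt7 fell by 1.99, the surface protein Cd24a by 2.23, the tight junction gene Cldn7 by 2.13, Anxa13 by 2.20 and the adhesion molecule Epcam, not above background at 1 month, by at least 2.6-fold. Sox9, the transcription factor of ductal plate cells, went the other way without passing (0.78, adjusted p = 0.112). With 1 array left out in turn, the members that passed numbered 0 to 4.

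As a list, pancreatic acinar genes were highest on 1 array, the 2-week knockout. Of 27 listed, 15 passed the filter, and their median level was 6.08 in the 2-week wild type, 9.97 in the 2-week knockout, and 6.44, 6.38 and 6.33 at 1 month. The log2 of their summed signal was 12.51, 14.92, 11.25, 11.22 and 11.47 on the same arrays. By this sum the 2-week wild type also lay above the arrays of 1 month, while by the median it lay below them. The trypsinogen gene Try5 read 4.80 in the 2-week wild type, 10.85 in the 2-week knockout, and 5.16, 5.06 and 5.37 at 1 month. The elastase Cela3b read 4.70 and 11.26, then 4.17, 4.54 and 5.24. The median change was 0.07 in the wild type and −3.49 in the knockouts, so that the fall of the list over both genotypes (−2.09) turned to 0.07 without the 2-week knockout. Reg1, the lipase relative Pnliprp1 (9.0 and 10.68 at 2 weeks, 6.12, 6.87 and 7.44 at 1 month) and the trypsin inhibitor Spink1 fell in both genotypes. They were the 3 members that passed, where 4.97% of all genes fell. The acinar genes Cpa1 and Prss2 were not among the genes tested.

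Bile acid and sterol genes split, and the counts here stand against 6.24% of all genes that rose and 4.97% that fell. Cyp7a1, the rate-limiting enzyme of classical bile acid synthesis (A_52_P84027, mm9 chromosome 4, 6193456 to 6193515), read 14.09 and 13.76 at 2 weeks and 8.45, 6.86 and 9.55 at 1 month. The drop was equally deep in both genotypes (−5.65 and −5.55), though the 2 knockouts of 1 month stood well apart. The fitted change was −5.59 ± 0.85 (adjusted p = 0.0329), and a further probe gave −4.23. Its counterpart Cyp7b1, of the alternative pathway, rose, as described above. Of 28 bile acid genes, Hsd3b7 (0.70) and the sterol carrier Scp2 (0.76) also rose and the bile acid receptor Nr1h4 fell (−0.78), so that 4 rose and 2 fell and the median was 0.02. Of 26 cholesterol synthesis genes 4 fell, among them Mvd (−1.33) and squalene epoxidase Sqle (−1.17), and 0 rose. The median of that list was −0.51 in the wild type and 0.24 in the knockouts. Of 28 lipogenesis genes 5 rose, including the elongase Elovl5 (1.51) and the carbohydrate-responsive factor Mlxipl (0.71), and 2 fell, the desaturase Scd2 (−1.61) and G6pdx (−0.69), which makes NADPH.

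Genes of the circadian clock moved in both directions. The time of day at which livers were taken is not given, so for these genes it cannot be told apart from age. Of 21 clock and clock-output genes, 18 were tested, and 3 rose and 8 fell (6.24% and 4.97% of all genes). Arntl, which encodes BMAL1, read 8.06 and 7.87 at 2 weeks and 9.96, 10.19 and 10.06 at 1 month, and rose by 2.10 ± 0.15 (adjusted p = 0.0146). The arrays of an age lay close together, and the ages did not overlap. Ciart, a repressor of BMAL1 and CLOCK (A_52_P63343, mm9 chromosome 3, 95682433 to 95682492), read 7.47 and 7.26 and then was not well above background on any array of 1 month, at least 8.59-fold lower. Dbp, a clock-driven transcription factor of liver, read 12.81 and 13.13, then 9.24, 8.74 and 9.09, and fell by 3.94 ± 0.22 (adjusted p = 0.0121). The ages were again apart, and the fall was close in the wild type (−3.57) and the knockouts (−4.21). The period genes Per3 (at least 5.31-fold) and Per2 (−2.41 ± 0.13) and the deubiquitinase Usp2 (−3.58 ± 0.20) fell, but the further Per2 probe gave only −0.22. The PAR factors Tef (−1.74) and Hlf (−1.21) and the repressor Nr1d2 (−1.67) fell too. Nfil3, which opposes the PAR factors, rose by 1.5, and Cry1, a repressor late in the cycle, by 0.67, while the further Cry1 probe gave 2.47. Per1 did not pass (−0.70 in the wild type and −2.27 in the knockouts, adjusted p = 0.079). Without the 2-week knockout 2 of the 18 genes passed, and without 1-month knockout replicate 1, 0 passed (limma).

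BMAL1 and CLOCK bind the E-box CACGTG, which reads the same on both strands, and promoters that hold it are shown for that reason. RefSeq promoters (GRCm38.p6) were matched for 15 of the 18 genes, and 4 of them hold CACGTG in the 250 bases before the gene start, as do 6.86% of 27025 genes with a promoter. Among these 4, Ciart and Tef fell, Cry1 rose, and Per1 did not pass. The 3 that passed are printed, with the E-boxes in capitals, and for Tef 1 of 2 promoters in the table is given.
Ciart, chr3:95882229-95882478, minus strand: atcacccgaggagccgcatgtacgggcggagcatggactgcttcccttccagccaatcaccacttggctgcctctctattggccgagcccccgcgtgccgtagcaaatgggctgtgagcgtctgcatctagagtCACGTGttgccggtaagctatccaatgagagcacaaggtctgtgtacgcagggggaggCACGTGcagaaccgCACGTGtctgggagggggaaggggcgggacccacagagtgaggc
Cry1, chr10:85185055-85185304, minus strand: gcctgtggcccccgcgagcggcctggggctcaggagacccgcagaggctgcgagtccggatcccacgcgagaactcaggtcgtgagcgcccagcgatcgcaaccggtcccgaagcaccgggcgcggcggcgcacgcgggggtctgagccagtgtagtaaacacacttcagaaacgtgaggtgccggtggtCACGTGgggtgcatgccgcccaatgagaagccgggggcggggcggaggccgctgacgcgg
Tef, chr15:81802423-81802672, plus strand: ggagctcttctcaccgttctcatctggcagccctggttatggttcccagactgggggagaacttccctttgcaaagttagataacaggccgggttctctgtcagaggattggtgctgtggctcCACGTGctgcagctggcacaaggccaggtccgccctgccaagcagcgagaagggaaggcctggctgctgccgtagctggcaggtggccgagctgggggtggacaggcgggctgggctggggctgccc
Ciart holds 3 E-boxes within 116 bases of its start. The letters alone do not show binding, and the genes that hold them did not all move in one direction.

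**Figure D4:**
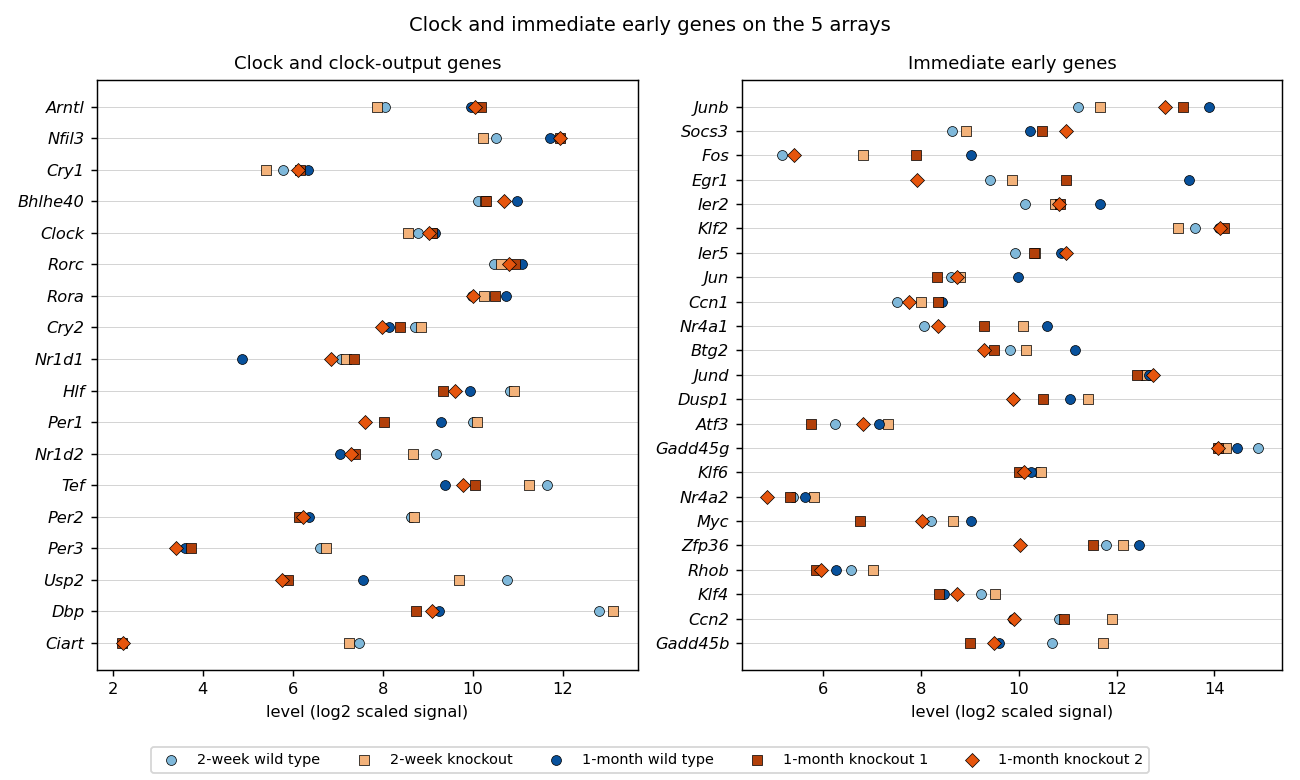
Level on each of the 5 arrays (horizontal axis, log2 scaled signal) of the 18 tested clock and clock-output genes (left) and the 23 tested immediate early genes (right), each ordered by the fitted change from the largest rise to the largest fall. In the clock panel the light 2-week and dark 1-month symbols separate for Arntl and Nfil3 at the top and for Ciart, Dbp, Usp2, Per3 and Per2 at the bottom in both genotypes; in the other panel the 1-month wild type (dark circle) is often the highest array.

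Interferon-response genes that passed were all higher at 1 month. Of 31 tested genes of 32 listed, 10 rose and 0 fell, where 6.24% and 4.97% of all genes did, and the median was 0.81 (0.51 in the wild type, 0.79 in the knockouts). Irf7, the transcription factor that amplifies interferon production (A_51_P421876, mm9 chromosome 7, 148450664 to 148451014), read 6.24 and 6.89 at 2 weeks and 8.38, 8.92 and 8.93 at 1 month. It rose by 2.08 ± 0.12 (adjusted p = 0.0121), by nearly the same amount in each genotype (2.15 and 2.04). The guanylate-binding protein Gbp6 read 5.41 and 5.64, then 7.96, 7.97 and 7.80, and rose by 2.38 ± 0.15. The antiviral enzyme viperin, Rsad2, rose by 1.54 ± 0.12, the RNA sensor enzyme Oas1a by 1.39 ± 0.12, the nucleic acid sensor Zbp1 by 2.05 ± 0.25, and Oasl1 (1.5), Ifit1 (1.44), Ifit3 (0.96), Mx2 (0.94) and Oas2 (0.78) by less or similar amounts. Without the 2-week knockout or without 1-month knockout replicate 1, 0 members passed (limma). The medians were then 0.51 and 0.82.

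Many genes of this group are bound through an interferon-stimulated response element, searched here on both strands as TTTC, any 2 bases and TTTC, a pattern chosen after the values were seen. Of 22 matched members, 12 hold it in the 250 bases before the start, as do 3.46% of 27025 genes, and 4 of the 6 matched members that rose hold it. Those 4 promoters (GRCm38.p6, RefSeq) are printed with every match in capitals, where overlapping matches run together, and in Oas1a the matches are on the reverse strand.
Rsad2, chr12:26456453-26456702, minus strand: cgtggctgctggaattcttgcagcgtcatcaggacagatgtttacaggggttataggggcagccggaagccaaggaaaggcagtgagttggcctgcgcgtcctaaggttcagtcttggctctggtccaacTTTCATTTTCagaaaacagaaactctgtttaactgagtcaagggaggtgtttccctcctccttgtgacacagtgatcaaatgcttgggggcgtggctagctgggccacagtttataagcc
Oas1a, chr5:120907526-120907775, minus strand: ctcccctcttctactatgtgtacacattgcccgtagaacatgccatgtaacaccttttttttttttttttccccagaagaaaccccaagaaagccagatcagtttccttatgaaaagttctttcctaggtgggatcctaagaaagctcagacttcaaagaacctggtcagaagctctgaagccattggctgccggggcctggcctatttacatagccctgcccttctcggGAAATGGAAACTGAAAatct
Ifit1, chr19:34640639-34640888, plus strand: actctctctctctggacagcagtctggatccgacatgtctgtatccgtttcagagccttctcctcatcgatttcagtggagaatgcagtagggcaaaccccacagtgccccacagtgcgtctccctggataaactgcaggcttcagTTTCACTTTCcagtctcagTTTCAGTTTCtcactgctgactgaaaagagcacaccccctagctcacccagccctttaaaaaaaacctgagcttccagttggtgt
Ifit3, chr19:34583279-34583528, plus strand: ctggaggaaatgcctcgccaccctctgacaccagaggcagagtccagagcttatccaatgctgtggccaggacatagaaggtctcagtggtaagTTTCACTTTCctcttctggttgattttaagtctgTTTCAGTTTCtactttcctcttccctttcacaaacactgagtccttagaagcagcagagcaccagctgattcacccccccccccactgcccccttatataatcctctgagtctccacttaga
Ifit1 and Ifit3, both on chromosome 19, each hold the pattern at 2 places. A match is a description of these letters and not of binding.

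Most extracellular matrix and stellate cell genes fell. Of 42 tested of 44 listed, 27 fell and 1 rose (Col15a1, 0.75), where 4.97% and 6.24% of all genes did. The median was −1.04, with −1.03 in the wild type and −1.04 in the knockouts. The median level was 9.22 and 9.48 at 2 weeks and 8.22, 8.70 and 8.62 at 1 month. Col1a1, the main chain of type I collagen (A_52_P525107, mm9 chromosome 11, 94813075 to 94813134), read 10.57 and 11.67, then 8.32, 9.57 and 8.85. The 2-week knockout was the highest and the 1-month wild type the lowest array. The change was −2.37 ± 0.26 (adjusted p = 0.0219) and was close in both genotypes (−2.25 and −2.46). Its partner Col1a2 fell by 2.04 ± 0.19, type III collagen Col3a1 by 1.71, elastin, Eln, by 1.54 ± 0.15, the microfibril protein Mfap4 by 2.17 ± 0.23 and fibulin Fbln2 by 1.57 ± 0.15. The mesenchymal filament genes Vim (−1.67) and Des (−1.10) fell with them, whereas Lrat, which stores retinoids in stellate cells, did not pass (−0.42, adjusted p = 0.343). Without the 2-week knockout 0 members passed, and without either wild-type array 1 did.

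Of 20 tested imprinted and fetal genes of 27 listed, 9 fell and 0 rose, where 4.97% and 6.24% of all genes did. Without 1-month knockout replicate 1, 0 members passed (limma), without the 2-week knockout 3, and 5 without any other array. The list had a median of −1.07 (−1.0 in the wild type and −1.40 in the knockouts). H19, an imprinted RNA silenced after birth (A_51_P142196, mm9 chromosome 7, 149761769 to 149761828), read 10.12 in the wild type and 16.46 in the knockout at 2 weeks, and 5.63, 13.37 and 13.04 at 1 month. The knockouts of 1 month thus still lay above the 2-week wild type, and the ages overlap unless genotypes are kept apart. The change was −4.49 in the wild type and −3.26 in the knockouts, and −3.79 ± 0.33 in the fit (adjusted p = 0.0185). Its neighbour Igf2, the fetal growth factor, read 6.42 and 12.45, then 3.51, 7.25 and 7.10 (−4.26 ± 0.57), with the 1-month wild type not above background. Meg3 (8.83 and 9.29, then 6.51, 6.89 and 6.44), the growth restrainers Grb10 and Cdkn1c and the small protein gene Bex1 fell as well, with changes of −2.49, −1.89, −2.0 and −3.31. The probes of Meg3 ranged from −2.49 to −1.76 and those of Grb10 from −1.89 to −0.91. The proteoglycan Gpc3, a fetal liver marker, fell by 2.66, and it and Bex1 were dim in the 1-month wild type, while Afp did not pass (−1.61, adjusted p = 0.0519).

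Few cell cycle genes passed the age test over both genotypes. Of 59 tested of 64 listed, 7 fell and 0 rose, where 4.97% and 6.24% of all genes did, and the median was −0.47 in the wild type and −1.64 in the knockouts. The median level was 8.04 and 8.41 at 2 weeks, 8.15 in the 1-month wild type, and 6.97 and 6.66 in the knockouts of 1 month. For 40 of the 59 genes all arrays of 1 month, the wild type included, lay below both 2-week arrays, as did 21.2% of all genes. With 1 array left out, 0 members passed without the 2-week knockout or 1-month knockout replicate 1 (limma), 2 without 1-month knockout replicate 2 and 7 without either wild-type array. In the fit of all 6 groups of the series, 25 members fell within the knockouts, where 2.38% of all genes did. Ube2c, which targets cyclins for destruction, read 9.71 and 9.95, then 8.28, 7.28 and 6.96 (−2.23 ± 0.36, adjusted p = 0.0364), cyclin B2, Ccnb2, fell by 1.75 ± 0.33, and the spindle motor Kif23, not well above background on any array of 1 month, was at least 3.22-fold lower. The proliferation marker Mki67 (−1.06 in the wild type and −2.79 in the knockouts) and the kinase Cdk1 (−0.86 and −2.54) did not pass for age over both genotypes (adjusted p = 0.058 and 0.0635). For 33 of the 59 genes the knockout change was lower at an unadjusted p under 0.05, and for 0 it was higher, where 3.87% and 4.17% of all genes were, but 0 genes passed after adjustment (limma).

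Of 58 phase I detoxification genes, 14 rose and 4 fell (median 0.39), and of 50 phase II genes, 13 rose and 3 fell (median 0.31), where 6.24% of all genes rose and 4.97% fell. Of the phase I genes, 11 were at least 2-fold higher and 12 at least 2-fold lower in the wild type, against 19 and 3 in the knockouts. Microsomal epoxide hydrolase, Ephx1, read 12.75 and 12.52 at 2 weeks and 14.04, 14.17 and 14.18 at 1 month, with all later arrays higher (1.49 ± 0.14, adjusted p = 0.0201). Aldehyde oxidase Aox1 rose by 1.91, Adh4, which oxidises alcohols and retinol, by 2.27, the carboxylesterase Ces3b by 3.16 and retinal dehydrogenase Aldh1a1 by 2.45. The glutathione transferases Gsta1 (2.15), Gsta2 (2.39) and Gstm4 (1.39) and the glucuronosyltransferases Ugt1a9 (2.61, not well above background in the 2-week knockout) and Ugt2a3 (1.27) also rose. Fmo2, Fmo4 (−1.67) and the sulfotransferases Sult1d1 (−1.75) and Sult1c2 (−1.57) fell. Gsta1 and Gsta2 are near-identical copies, and their probes may share signal.

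Of 54 plasma protein genes, 5 (9.26%) rose, near the 6.24% of all genes, and 0 fell, with a median of 0.29, among them the fibrinogen chain Fga (1.29 ± 0.15). Of 30 acute phase genes, 5 rose and 1 fell, where 6.24% and 4.97% of all genes did. Orm2 read 13.05 and 8.81 at 2 weeks and 15.56, 13.20 and 14.12 at 1 month, and rose by 3.85 ± 0.63, with Orm1 at 3.84 ± 0.59. The 2-week knockout was the low array for both orosomucoid genes, which are near-identical copies. Socs3, the feedback inhibitor of cytokine and growth hormone signals, rose by 1.71 ± 0.19, and Fgl1 by 1.24 ± 0.18. Nab2, a corepressor of the EGR transcription factors, was dim on both 2-week arrays and at least 3.53-fold higher at 1 month.

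Fuel and amino acid lists had few members past the test, and their counts stand against 6.24% of all genes that rose and 4.97% that fell. Of 15 gluconeogenesis and glycogen genes, the lactate dehydrogenase Ldhd (1.57 ± 0.12) and the glycogen-targeting phosphatase subunit Ppp1r3c (1.84 ± 0.21) rose and mitochondrial Pck2 fell (−1.36 ± 0.18). Of 22 mitochondrial fatty acid oxidation genes, Acsl1 (0.78) and Decr1 (0.66) rose, and Cpt1a, the gate of fatty acid entry into mitochondria, read 13.94 and 13.52, then 12.97, 12.73 and 12.85, a fall of 0.83 ± 0.13 (adjusted p = 0.0348). Of 11 galactose and fructose genes 1 rose and 0 fell, with a median of −0.08. Of 46 urea cycle and amino acid genes, 5 fell and 0 rose, including tyrosine aminotransferase Tat (−0.89), the lysine enzyme Aass (−0.96) and Asl of the urea cycle (−0.94). The median of that list was −0.60 in the wild type and 0.06 in the knockouts. Of 30 PPARα targets, Vnn1 (1.65), the peroxisomal thiolase Acaa1b (1.44) and the lipid droplet protein Plin2 (0.93) rose and 1 fell. Of 22 iron and metal genes 4 rose and 0 fell, led by the manganese exporter Slc30a10, which read 7.5 and 7.97, then 9.94, 10.39 and 10.42 (2.43 ± 0.11, adjusted p = 0.0121). Among 20 genes of the growth hormone axis, the receptor Egfr rose (1.62 ± 0.15), with Socs3, and Cux2 fell. Of 26 retinoid and thyroid genes, 3 rose and 2 fell, with the retinal reductase Dhrs3 at 1.34 and the retinoic acid receptor Rarb at −1.27.

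**Figure D5:**
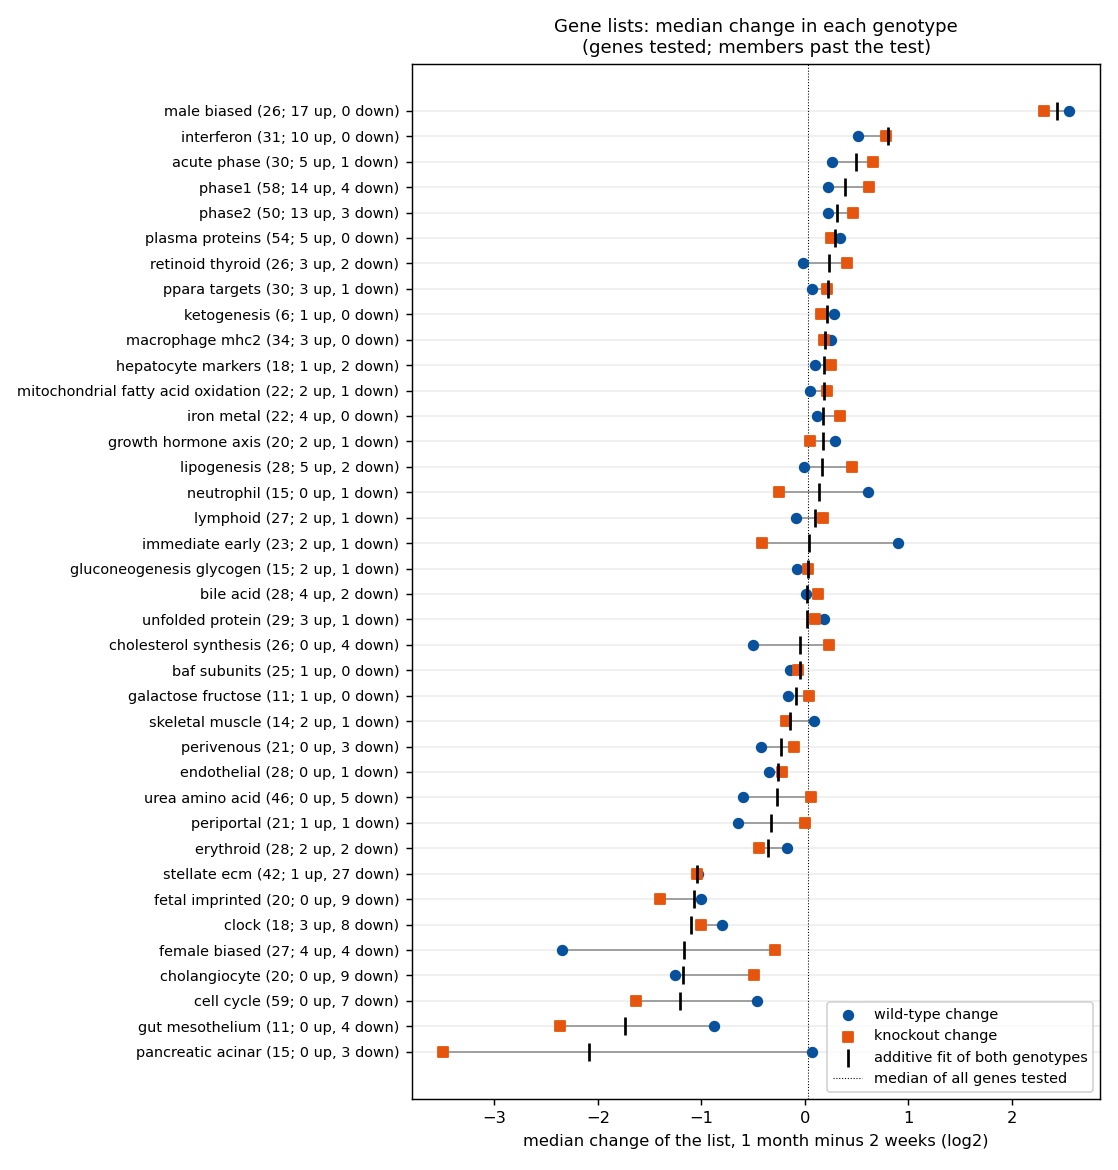
Median change from 2 weeks to 1 month (horizontal axis, log2) of each of the 38 gene lists, in the wild type (circles), the knockouts (squares) and the fit of both (black ticks), with the number of genes tested and of members past the limma test beside each name and the median of all genes as a dotted line. Male-biased genes stand apart at the top with 17 of 26 past the test, and the widest gaps between genotypes are those of the pancreatic acinar, female-biased, gut, immediate early and cell cycle lists.

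The liver identity of the arrays was checked on its defining markers, with counts set against 6.24% of all genes that rose and 4.97% that fell. Albumin, Alb, read 18.05 and 18.14 at 2 weeks and 18.43 to 18.48 at 1 month. Of 18 hepatocyte genes, 1 rose and 2 fell (Fga and Tat among them, above), with a median of 0.19 that turned to −0.02 in the deposited matrix. Of 28 endothelial genes 1 fell (median −0.26), and of 34 macrophage genes 3 rose (median 0.19). Of 27 lymphoid genes 2 rose and 1 fell (median 0.10). The T cell gene Cd3e rose by 0.84, while Cd3g, dim on most arrays, did not pass (0.16, adjusted p = 0.704, limma). Thy1, shared by T cells and portal fibroblasts, fell by 1.76.

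For no gene did the gap between the wild-type and knockout changes pass the test, and the genes given here are those with the smallest p in each direction, not the widest gaps. The knockout change was above the wild-type change for Mup4 (5.29), Mup1 (5.21), Mup5 (4.69), the RAC exchange factor Tiam2 (3.32), the peroxisomal oxidase Hao2 (3.30) and the phosphatase Dusp14 (3.27), with adjusted p from 0.151 to 0.235 (limma). Dusp14 was not well above background on any knockout array, so its gap is between background readings there. Tiam2 read 5.22 and 5.70 at 2 weeks, 4.53 in the 1-month wild type, and 8.32 and 8.33 in the knockouts of 1 month, so that the knockouts of 1 month alone were high. Hao2 read 11.78 and 12.73, then 8.31, 12.40 and 12.72, and there the 1-month wild type alone was low. The knockout change was below the wild-type change for the colipase Clps (−7.43), the trypsinogens Try5 (−6.01) and Prss3 (−4.74), the carboxyl ester lipase Cel (−3.93), the pseudogene Serpina4-ps1 (−3.06) and the elastase Cela1 (−2.97), with adjusted p from 0.101 to 0.191. Clps was not well above background on the 2-week wild-type array or on the 1-month knockouts, and was at least 70.1-fold lower at 1 month in the knockouts. Of these 6, 5 are acinar genes, each highest in the 2-week knockout, and trypsinogen probes may read near-identical copies. Cela1 stood out less there, at 5.57 and 7.72 at 2 weeks, then 7.36, 6.60 and 6.48 at 1 month. Serpina4-ps1 read 6.04 and 4.40, then 11.10, 6.44 and 6.38, with the 1-month wild type alone high and the 2-week knockout not well above background. The differences of Clps, Try5, Prss3 and Cel rest on the 2-week knockout array, of 1 mouse. The Cela1 difference rests on both genotypes, with changes of 1.79 in the wild type and −1.18 in the knockouts.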

How the data were processed

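Total RNA was labelled with Cy3 and hybridised to 1-colour Agilent mouse arrays, per the labels' protocols, and scanner files were made with Agilent Feature Extraction 10.7, per the submitters' processing notes. The deposited scanner files hold each spot's processed intensity on a linear scale, with spatial detrending and no separate background subtraction, per the file headers. The deposited series matrix holds the authors' log2 values of the same arrays and served as an alternative. Here log2 intensities were averaged per probe without outlier spots and scaled to the 75th percentile. Probes well above background on at least 2 of the 5 arrays (24183) were kept, and the probe with the highest mean stood for a gene (16247 genes, 5608 with several probes). Of the 1821 genes past the age test, 421 had further probes, and for 56 of these the probes differed in direction. limma 3.58.1 in R 4.3.3 fitted age and genotype over the 5 arrays, and 6 groups over all 8 arrays for the knockout change and the difference of changes, in which the spread of a group with 1 array is taken from the knockout pairs. The replicates are separate mice with 1 or 2 arrays a group, so precision is limited by their number. On simulated arrays, 47 of 100 genes changed by 1 log2 unit and 96 of 100 changed by 2 were recovered among 16247, with 15 false calls. The simulated noise was independent and normal with each gene's fitted spread, and no slide or genotype effect was put in. These figures therefore do not tell how many calls on the real arrays are false, since age and slide coincide there. The members and gene lists were chosen with earlier results of these data known. Genes were named by rule: up to 12 per direction with the largest fold past the test, up to 6 per list with the smallest p, up to 6 per direction for the difference, and Arid1a and Arid1b. Other genes, such as Mup1, C6, Cyp2b9, Per1, Lrat and Mki67, were named after their values were seen. A few genes are not reported here. Alternatives were the deposited matrix, background correction, centring, filter, probe rule, arrays fitted, variance model, genotype term and each array left out.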

Additional observations from a re-analysis of the deposited data

Results flagged for a closer look

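In several genes and lists the single wild-type change lay on one side of 0 and both knockout changes on the other. The knockout change minus the wild-type change was 0.045 for Arid1a, −0.37 for Arid1b, 3.32 for Tiam2, 3.27 for Dusp14 and 4.52 for Cyp2b9. It was −7.43 for Clps, −6.01 for Try5, −4.74 for Prss3, −3.93 for Cel and −2.97 for Cela1. Dusp14 was dim on all knockout arrays, and Clps on the 2-week wild-type and the 1-month knockout arrays. None of these differences passed the limma test after adjustment.

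Among the lists, the wild-type median was −0.51 for cholesterol synthesis, −0.60 for urea cycle and amino acid genes, −0.081 for gluconeogenesis and glycogen, −0.0069 for lipogenesis, −0.017 for retinoid and thyroid genes and −0.087 for lymphoid genes, with knockout medians above 0. It was 0.90 for immediate early genes, 0.61 for neutrophil genes, 0.073 for pancreatic acinar genes and 0.092 for skeletal muscle genes, with knockout medians below 0. The differences of the list medians were not tested, and each wild-type median rests on 1 array at each age.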

How the results depend on the processing

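With 1 or 2 mice in a group, the counts of genes past the test depend on single arrays. With each array left out in turn, the age fit called 0 to 330 genes (0 to 144 higher, 0 to 186 lower) and the knockout fit 35 to 281. Normexp background correction left 0 genes for age (limma, 76 at an unadjusted p under 0.05) and 3 in the knockouts. With poor (flagged) local backgrounds replaced, 2024 genes passed for age and 759 in the knockouts. Flagged backgrounds numbered 2015 and 1661 on the 2-week wild-type and knockout arrays, and 471, 477 and 398 on those of 1 month. No filter on dim probes left 553 (255 higher, 298 lower) for age and 101 in the knockouts. For age, slide as a block left 35 (9 and 26), and no genotype term 1048 (633 and 415). The knockout fit called 954 genes with median centring, 957 with trended and robust variance and 281 from the 5 arrays alone. The difference between genotypes was called for 11 genes with normexp after replacing poor local backgrounds, 22 with median centring and 4 with trended and robust variance. The wild type had 2057 genes past 2-fold, 5261 with normexp, 783 with replaced backgrounds and 3437 with no filter. No paired analysis was possible because the 2-week groups hold 1 sample each. The causes were not tested.

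The cell cycle, cholangiocyte, clock, female-biased, fetal and imprinted, interferon, male-biased and matrix lists kept their direction under every alternative run. With normexp the medians were −0.15 for cell cycle, −0.17 for cholangiocyte, −0.33 for clock, −0.31 for fetal and imprinted, 0.57 for interferon, 1.86 for male-biased and −0.33 for matrix genes. With replaced backgrounds they were −0.44, −0.29, −0.76 and −0.86 for the first 4 of these, 0.62 for interferon and −0.82 for matrix genes. With no filter they were −0.62 for cholangiocyte, −1.0 for fetal and 2.20 for male-biased genes, which also had 2.20 with the mean of a gene's probes. With slide as a block they were −0.70 for clock, −0.75 for fetal, 0.69 for interferon, 1.57 for male-biased and −0.75 for matrix genes. With no genotype term they were 2.16 for male-biased and −0.97 for matrix genes. With an array left out, the medians ranged from −1.64 to −0.47 for cell cycle, −1.25 to −0.49 for cholangiocyte, −1.18 to −0.80 for clock, −2.34 to −0.29 for female-biased, −1.40 to −1.0 for fetal and 0.51 to 0.82 for interferon genes.

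Smaller medians crossed 0, and so did the large acinar median (−2.09 in the main fit). With normexp they were 0.046 for BAF subunits, 0.071 for erythroid, 0.015 for galactose and fructose and 0.079 for muscle genes (0.064 with replaced backgrounds). With slide as a block they were 0.27 for erythroid and 0.018 for galactose and fructose genes, and in the deposited matrix −0.023 for hepatocyte markers. With an array left out they ranged from −0.16 to 0.044 for galactose and fructose, −0.0068 to 0.45 for lipogenesis, −3.49 to 0.073 for acinar, −0.017 to 0.40 for retinoid and thyroid, −0.18 to 0.092 for muscle and −0.60 to 0.058 for urea cycle and amino acid genes. Among single genes, Arid1a was −0.044 with median centring, −0.0084 over all 8 arrays, −0.066 with slide as a block and −0.076 with no genotype term. Arid1b was 0.11 with normexp and 0.033 with the mean of probes. Cela1 was −0.013 with replaced backgrounds, Cyp2c39 was −0.66 with slide as a block and Alb was −0.063 in the deposited matrix. With an array left out the change ranged from −0.0089 to 0.036 for Arid1a, −0.19 to 0.18 for Arid1b, −0.69 to 2.63 for Tiam2, −2.12 to 1.15 for Dusp14, −6.22 to 1.20 for Clps, −5.64 to 0.37 for Try5, −3.83 to 0.91 for Prss3, −3.49 to 0.43 for Cel, −1.18 to 1.79 for Cela1 and −3.90 to 0.62 for Cyp2b9.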

Other observations

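Immediate early genes, which respond within minutes to stress and handling, did not move as a group over both genotypes. Of 23 tested, Socs3 and the AP-1 factor Junb rose and Klf4 fell, where 6.24% of all genes rose and 4.97% fell. Junb read 11.20 and 11.65 at 2 weeks and 13.88, 13.36 and 12.98 at 1 month, a rise of 2.01 ± 0.32 (adjusted p = 0.0348, limma), and was higher on all 3 later arrays. The median of the list was 0.90 in the wild type and −0.42 in the knockouts. Of 29 unfolded protein response genes, 3 rose, the glutathione-degrading Chac1 (1.87), the degradation factor Derl3 (1.87) and the chaperone Calr (0.78), and Creld2 fell (−0.90).

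The STAT site TTCNNNGAA, searched on both strands in the 250 bases before the start, was held by 1 of 16 matched male-biased genes (C8a) and by 8.13% of 27025 genes.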
